A study of Mus musculus with 4 samples.

Results

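Heat shock proteins and their co-chaperones were followed in renin cells recruited in the mouse kidney. The members were taken by symbol from the deposited table: genes named Hspa, Hspb, Hspd, Hspe, Hsph or Hsp90a, those named Dnaja, Dnajb or Dnajc, those named Bag, and Hsf1, Hsf2, St13, Stip1 and Ahsa1. The endoplasmic reticulum (ER) genes Hspa5, Dnajb9, Dnajb11 and Dnajc3 were left out. This rule found 78 of the 32647 symbols. Although the set is meant for the cytosol, 55 of the encoded proteins work in the cytosol or nucleus, 10 in mitochondria, 9 in the ER and 2 in cilia, and the place of 2 is unsure. The members are therefore called heat shock proteins and co-chaperones.

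All 4 libraries came from 1 condition. Adult C57BL/6 mice carrying the transgene Ren1c-YFP, whose renin promoter makes yellow fluorescent protein, received a low-sodium diet and captopril at 0.5 g/L in the drinking water for 1 week. Captopril inhibits angiotensin converting enzyme, and with sodium loss it makes more vascular cells of the kidney express renin. Kidney cortex was digested with enzymes at body temperature, YFP-positive cells were sorted, and the RNA of a small pool of cells was amplified and sequenced. The libraries were 2 biological replicates with 2 technical replicates each, here called 1a and 1b for biological replicate 1 and 2a and 2b for biological replicate 2. The labels do not say whether a biological replicate is 1 animal. Any cell with an active renin promoter is sorted by this transgene, and untreated renin cells are not analysed here, so the values are levels in recruited cells and not effects of recruitment.

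Chaperones keep proteins folded. Hsp70 proteins bind exposed hydrophobic stretches in cycles of ATP use, which J proteins (the Dnaja, Dnajb and Dnajc genes) start and nucleotide exchange factors (Bag and Hsp110 proteins) end. Hsp90 takes over partly folded clients such as kinases and steroid receptors, and small heat shock proteins hold unfolded proteins without ATP and bind actin filaments in muscle. Some of these genes are made at all times, while others are switched on when the factor Hsf1 binds heat shock elements, repeats of the unit GAA in alternating orientation.

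The upstream sequences of Hspa1a, Hspa1b, Hspb1 and Hspe1 are shown because these are among the most abundant inducible members and because their windows hold the repeated unit. Each runs from position -140 to -61, counted from the transcription start in RefSeq on GRCm38.p6, and capitals mark units that alternate in orientation with 2 bases between them.
Hspa1a: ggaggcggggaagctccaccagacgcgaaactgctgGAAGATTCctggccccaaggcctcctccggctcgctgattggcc
Hspa1b: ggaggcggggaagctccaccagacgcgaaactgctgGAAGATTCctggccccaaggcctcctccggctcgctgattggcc
Hspb1: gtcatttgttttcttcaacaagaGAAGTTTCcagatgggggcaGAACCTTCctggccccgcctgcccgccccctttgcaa
Hspe1: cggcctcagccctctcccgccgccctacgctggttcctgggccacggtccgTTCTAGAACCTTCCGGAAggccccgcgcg
The Hspa1a stretch lies at chr17:34972217-34972296 and the Hspa1b stretch at chr17:34959299-34959378, both on the minus strand. The Hspb1 stretch lies at chr5:135887779-135887858 and the Hspe1 stretch at chr1:55088008-55088087, both on the plus strand. The stretches of Hspa1a and Hspa1b are identical, and their whole windows before the start match at 247 of 250 bases (98.8%). Hspb1 holds 2 separate pairs of units, and Hspe1 holds an unbroken run.

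Of 78 members, 62 had a promoter window, which reaches from 250 bases before the start to 50 after it. At least 3 consecutive units (GAANNTTCNNGAA or TTCNNGAANNTTC, which together cover both strands) were found in 4 of them (6.45%), against 0.662% of all genes with a window. These 4 were Hspd1, Hspe1, Dnajb6 and Hsph1. Hspd1 and Hspe1 are neighbours transcribed in opposite directions, so their windows share the same run. By class, 3 units were in 1 of 6 core inducible members with a window, and in 3 of 14 with the further inducible members. Among constitutive members they were in 1 of 12, and among the other 36 in 0. At least 2 units (GAANNTTC or TTCNNGAA) were found in 16 members (25.8%), against 17% of all genes with a window. They were in 5 of 6 core inducible members with a window, in 10 of 14 once the further inducible members are included, in 1 of 12 constitutive members and in 5 of the other 36. These are letters in a window, and binding of Hsf1 was not measured. The lists were drawn from general knowledge of which genes are induced, so their difference in units is no independent result. Hspa1a and Hspa1b, nearly the same in this stretch, are counted separately, as are Hspd1 and Hspe1. Hspa8 and Hsp90ab1 are among the constitutive members without a window.

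The deposited level is TPM, a transcript abundance scaled by length and by library total, so that genes can be compared. A gene is called present in a library at 1 TPM or more. The libraries held 19871382 to 47471036 estimated counts, and 6405 to 8709 genes were present. The sort was checked by its target: Ren1 was at 15933 to 29637 TPM. Of 5 renin cell markers, 4 were present in every library, namely Ren1, Akr1b7, Acta2 and Myh11, while Cyb561 was at most 0.0344 TPM. Acta2 and Myh11 are genes of smooth muscle in general. Markers of the tubule were present in these libraries too, as 6 of 8 of the proximal tubule and 6 of 6 of the loop of Henle and distal nephron were in every library. Of 5 leukocyte markers, Cd68 was at 0 TPM in every library, Csf1r and Cd3e were at most 0.0122 TPM, Ptprc was at 0.0491 to 4.70 TPM and Cd74 at 10.2 to 351 TPM. Present in every library were 2 of 5 endothelial markers, with Emcn at 2.26 to 41.3 TPM and Pecam1 at 4.35 to 15.4 TPM, and 0 of 4 podocyte markers, with Podxl at 0.0559 to 17.3 TPM. In bulk RNA, more cells of a type and more RNA per cell cannot be told apart. No p-value was computed, because all libraries share 1 condition.

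In every library, 25 of the 78 members were present (32.1%), against 9.74% of all genes and 14% of protein-coding genes. A further 42 were present in some libraries, 17 of them in only 1, and 11 were present in none. Dnajb3, Dnajb7 and Hspb9 were at 0 TPM in all 4 libraries. By library, 49, 44, 46 and 39 members were present in 1a, 1b, 2a and 2b. Families differed in this count. Both Hsp90 genes and both genes of the mitochondrial chaperonin were present in every library, as were 3 of 6 Bag genes, 2 of 4 Dnaja genes, 4 of 10 Hsp70 genes, 3 of 11 Dnajb genes and 2 of 7 small heat shock protein genes. Of the Dnajc genes, the largest and most varied family, 5 of 25 were, and of the 2 Hsf genes none was.

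The members together took 0.525% and 0.549% of all TPM in 1a and 1b and 0.300% and 0.367% in 2a and 2b, or 0.435 ± 0.144% (SD, n = 2 biological replicates). Few genes made up most of this. The 3 highest members held 53.9% of the members' TPM, the 10 highest 80% and the 20 highest 91.4%. Small heat shock proteins took 0.225% and 0.220% of all TPM in replicate 1 against 0.0225% and 0.0354% in replicate 2. Hsp70 genes took between 0.0625% and 0.101%, and the chaperonin genes between 0.0494% and 0.0933%. The small heat shock proteins thus account for most of the distance between the replicates in the total.

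**Figure D1:**
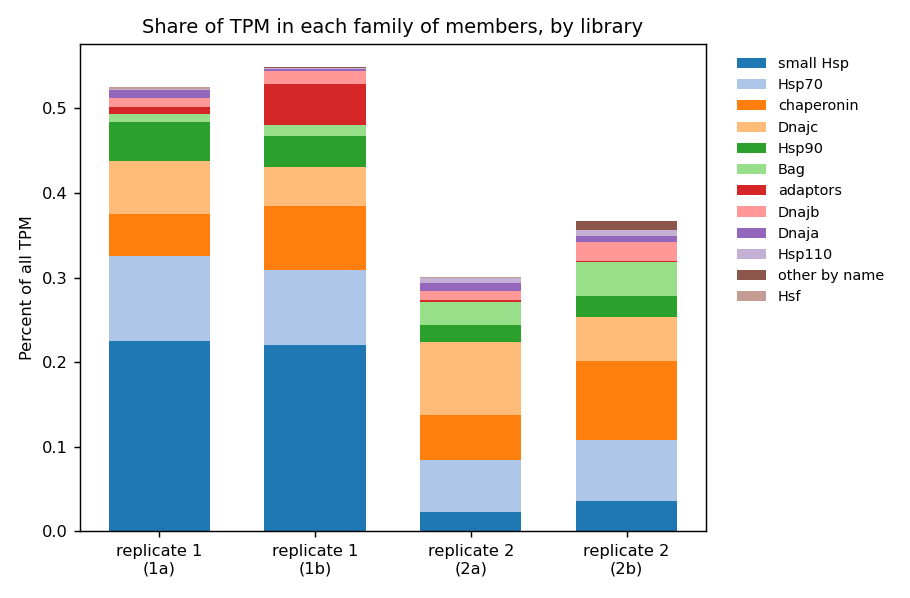
Share of all TPM (y axis, percent) taken by each family of heat shock proteins and co-chaperones in the 4 libraries (x axis). Stacked bars sum to the members' total, 0.525% and 0.549% in 1a and 1b and 0.300% and 0.367% in 2a and 2b, and the lowest segment, the small heat shock proteins, is tall only in the libraries of replicate 1.

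Hspb1, the small heat shock protein known as Hsp25 in the mouse, had the highest mean of all members (GRCm38 chr5:135887919-135889563). It was at 1876 and 1835 TPM in 1a and 1b and at 217 and 248 TPM in 2a and 2b, or 1044 ± 1148 TPM (SD, n = 2). The technical replicates lay close together and the biological replicates did not overlap. Hspb1 was thus the highest member in both libraries of replicate 1 and rank 4 in both of replicate 2. Its mean was at or above 99.4% of the detected genes. Salmon assigned Hspb1 a mean effective length of 254 bases against an annotated length of 930 bases, and the level per annotated length was 596 ± 664 TPM, second to Hspa8 at 641 TPM.

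Hspb2, a small heat shock protein of muscle, was at 278 and 357 TPM in 1a and 1b and at 1.37 and 106 TPM in 2a and 2b. Both libraries of replicate 1 were above both of replicate 2, whose own libraries were far apart. Hspb6, which is abundant in smooth muscle, was at 93.9 TPM in 1a, 0.0854 in 1b, 4.04 in 2a and 0.0307 in 2b, so that it was high in 1 library. Hspb8, a partner of Bag3, reached 5.92 TPM in 1b and was at or under 0.0165 TPM in replicate 2. Cryab, the related alpha B-crystallin gene that the symbol rule does not take, was at 490, 320, 244 and 106 TPM in 1a, 1b, 2a and 2b. It was higher in replicate 1 as well.

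Hspa8, the constitutive cytosolic Hsp70 (chr9:40800984-40810087), was at 763, 726, 473 and 659 TPM in 1a, 1b, 2a and 2b, or 655 ± 126 TPM (SD, n = 2). It was among the 3 highest members of each library and spanned 1.61-fold in TPM, but ranged from 321 to 855 TPM per annotated length. The heat-inducible pair Hspa1a (chr17:34969190-34972156) and Hspa1b (chr17:34956436-34959238) stood lower. Hspa1a was at 134 and 83.5 TPM in replicate 1 and at 33.9 and 9.47 TPM in replicate 2, with no overlap. Hspa1b was at 55.6, 62.2, 45.8 and 47.0 TPM, the narrowest range of these genes. Of the 31-base words of their transcripts, 63.8% of those of Hspa1a occur in Hspa1b, so that the division of reads between them is uncertain.

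Their sum was therefore set against Hspa8. The ratio was 0.248 and 0.201 in 1a and 1b and 0.168 and 0.0857 in 2a and 2b, or 0.173 ± 0.0743 (SD, n = 2). The inducible pair was below the constitutive gene in each library, and the libraries of replicate 1 were above those of replicate 2. Per annotated length the mean ratio was 0.161. Hspa9, the Hsp70 of the mitochondrial matrix, was at 8.88, 5.81, 33.8 and 12.1 TPM, and Hspa14, which works at the ribosome, at 9.34, 0.0888, 17.8 and 1.49 TPM. Hspa8 also shares 77.2% of its words with other genes, chiefly with Gm15459, which was itself at 0.266 TPM or less.

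The Hsp90 genes were both abundant. Inducible Hsp90aa1 (chr12:110690605-110702728) was at 321 and 214 TPM in 1a and 1b and at 72.6 and 158 TPM in 2a and 2b, or 192 ± 108 TPM (SD, n = 2). Constitutive Hsp90ab1 (chr17:45567775-45573271) was at 143, 154, 132 and 87.4 TPM, or 129 ± 27.7 TPM. Hsp90aa1 was the higher of the pair in 3 libraries, and the ratio of Hsp90aa1 to Hsp90ab1 was 2.24, 1.39, 0.551 and 1.81, or 1.43 ± 0.528 (SD, n = 2). The order of the pair is not settled by these values, because per annotated length the ratio was 1.46, 1.04, 0.659 and 0.432, with a mean of 0.888. Hsp90aa1 was then the higher only in replicate 1.

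**Figure D2:**
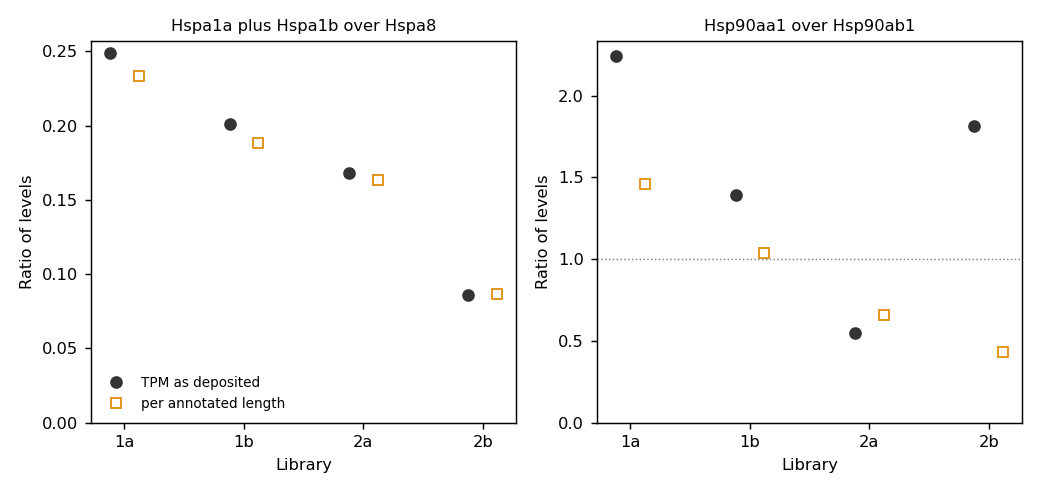
Ratio of inducible to constitutive genes (y axis, from 0) in the 4 libraries (x axis), for Hspa1a plus Hspa1b over Hspa8 on the left and Hsp90aa1 over Hsp90ab1 on the right. Filled circles are ratios of deposited TPM and open squares ratios per annotated length. The left ratio is between 0.0857 and 0.248 in TPM, and the right ratio crosses 1, the dotted line, on both scales and at 2b lies on opposite sides of it, at 1.81 and 0.432.

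Hspe1 (chr1:55088132-55091307) and Hspd1 (chr1:55077835-55088243) encode the small and the large subunit of the mitochondrial chaperonin. Hspe1 was at 474, 741, 507 and 863 TPM in 1a, 1b, 2a and 2b, or 646 ± 54.7 TPM (SD, n = 2), and was the highest member in both libraries of replicate 2. Hspd1 was at 19.7, 9.005, 21.2 and 69.6 TPM. Despite the shared promoter, Hspe1 exceeded Hspd1 by 24.1-fold, 82.3-fold, 23.9-fold and 12.4-fold. Per annotated length these ratios were 12.1, 42.4, 11.0 and 5.87. Both genes have near copies in the genome, and 48.1% of the words of Hspe1 and 55.8% of those of Hspd1 occur elsewhere.

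Among J proteins, Dnajc19 had the highest mean. Dnajc19, part of the motor that imports proteins into mitochondria, was at 440, 129, 170 and 195 TPM. Its relative Dnajc15 was at 6.28, 7.89, 449 and 30.7 TPM, so that both libraries of replicate 2 lay above replicate 1 and 2a far above all others. Its mean of 124 TPM became 18.9 TPM without 2a and 10.6 TPM per annotated length. Of the cytosolic J proteins, Dnaja1 was at 92.2, 10.1, 77.3 and 71.3 TPM and was low in 1b alone. Dnajb6, which keeps polyglutamine proteins from aggregating, was at 44.6, 83.6, 79.2 and 40.7 TPM. Dnajb1, the classical inducible partner of Hsp70, was at 11.5, 37.6, 2.69 and 22.2 TPM, and Dnajb4 at 47.2, 27.2, 11.3 and 32.3 TPM, both lowest in 2a.

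Other J proteins ranged widely in level. Dnajc7, which binds Hsp70 and Hsp90, was at 19.9, 55.4, 3.71 and 113 TPM, and Dnajc8, a nuclear protein of splicing complexes, at 45.0, 17.4, 34.7 and 156 TPM, both highest in 2b. Dnaja2 was at 2.31 to 10.3 TPM, and Dnajc5, the cysteine string protein of secretory vesicles, at 0.877 to 4.87 TPM. The ER membrane proteins Dnajb12 and Dnajb14 were at 0 to 0.451 TPM and 0.210 to 4.39 TPM. Dnajb13, a protein of motile cilia and sperm tails, was at 124 TPM in 2b and at 0.422 TPM or less elsewhere. Hspb11, a part of the transport machinery of cilia and no small heat shock protein in function, was at 96.5 TPM in 2b against 3.78 TPM or less elsewhere. Library 2b also held the highest Kap, a proximal tubule gene, at 11140 TPM against 1236 TPM or less in the others. The part of tubule cells in these values was not tested.

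A further 31 members are neither on these lists nor among the leading members of their families. Of them, 10 were under 1 TPM in every library, including the 3 at 0 TPM, and 8 reached 10 TPM in at least 1 library. Dnajc1, an ER membrane protein that binds ribosomes, was the only one of the 31 present in every library, at 2.05, 140, 4.57 and 1.32 TPM. Dnajc2, a J protein of the ribosome, was at 0.431, 51.6, 37.0 and 9.03 TPM, and Dnajc21, which acts in ribosome maturation, at 0, 13.2, 46.8 and 0.0513 TPM.

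Hsp110 proteins are nucleotide exchange factors of Hsp70. Hspa4 was at 1.88 and 2.87 TPM in 1a and 1b and at 32.3 and 46.1 TPM in 2a and 2b, with no overlap. Hsph1, the inducible member of this family, was at 0.535, 14.6, 0.723 and 25.8 TPM, and Hspa4l at 1.68, 0.0472, 30.99 and 0.0762 TPM. Neither separated the biological replicates. Of the Bag genes, Bag1 was at 13.8 and 56.9 TPM in replicate 1 and at 176 and 332 TPM in replicate 2, with no overlap. Bag3, which routes damaged proteins to autophagy in muscle, was at 52.8, 62.1, 5.36 and 51.8 TPM, and was low in 2a alone. Bag6, a factor in the handling of membrane proteins, was at 10.5 to 32.1 TPM, and Bag5 at 64.4 TPM in 2a and at 0.946 TPM or less elsewhere.

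Adaptors link Hsp70 and Hsp90. Stip1, which holds both chaperones together, was at 19.2, 20.3, 21.8 and 1.04 TPM. St13, which stabilizes Hsp70 on its client, was at 14.4, 5.81, 0.962 and 12.4 TPM. Ahsa1, which stimulates the ATPase of Hsp90, was at 43.3, 460, 9.96 and 0.269 TPM. Each of these adaptors was lowest in replicate 2, in 2b for Stip1 and Ahsa1 and in 2a for St13. The regulators Hsf1 and Hsf2 were not present in every library. Hsf1 was at 18.4, 0.0161, 0.468 and 2.23 TPM and Hsf2 at 5.23, 0.245, 0.0209 and 4.22 TPM, so each was under 1 TPM in 1b and 2a.

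**Figure D3:**
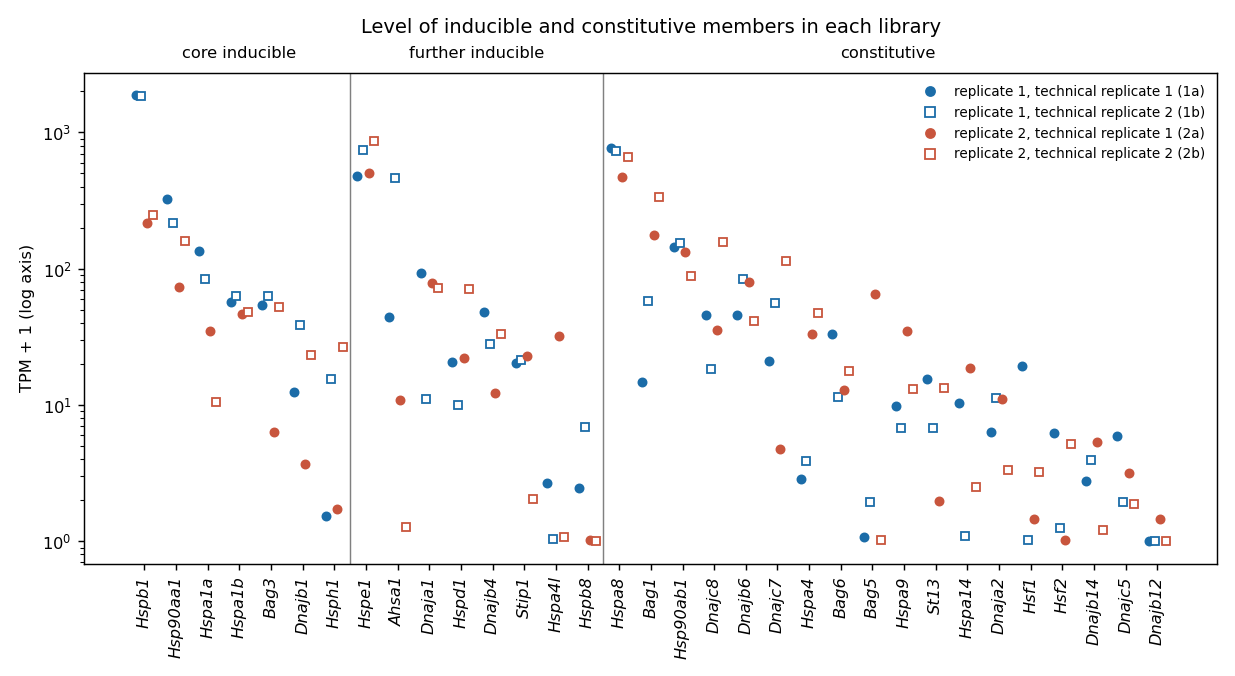
Level of each inducible and constitutive member (y axis, TPM + 1 on a log axis) in the 4 libraries. Members are ordered within 3 classes by mean level (x axis), blue marks replicate 1, red marks replicate 2, and filled circles and open squares are technical replicates 1 and 2. Hspb1, Hspe1 and Hspa8 stand highest in their classes, and the replicates of Hspb1 are 217 to 248 TPM against 1835 to 1876 TPM.

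The question of inducible against constitutive members was put to lists drawn from general knowledge of these genes. Earlier results of these data were known when the lists were chosen, so the comparison describes levels and is no independent test. The core inducible list was Hspa1a, Hspa1b, Hsp90aa1, Hsph1, Hspb1, Dnajb1 and Bag3, and 18 members formed the constitutive list. In every library, 6 of 7 core inducible members were present, all but Hsph1, and 10 of 18 constitutive members. With Dnaja1, Hspa4l, Hspd1, Hspe1, Hspb8, Stip1, Ahsa1 and Dnajb4 added as further inducible members, 11 of 15 were. The median core inducible level was 55.6, 62.2, 33.9 and 47.0 TPM in 1a, 1b, 2a and 2b, and the median constitutive level 11.6, 5.81, 14.9 and 12.2 TPM. The core inducible median was the higher in each library.

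On the scale of log2(TPM + 1), the median of the core inducible list exceeded that of the constitutive list by 2.20 and 3.21 in 1a and 1b and by 1.16 and 1.86 in 2a and 2b. Over the biological replicates the differences were 2.66 and 0.63, with a mean of 1.65 ± 1.44 (SD, n = 2), so that the mean is of the size of the spread. The value for replicate 2 lies under both of its libraries because each gene was averaged before the median was taken. Without Hspb1 the difference was 1.54, although the median of so short a list can move little when a single gene is left out. With cytosol members only, which leaves out constitutive genes of the ER and mitochondria, it was 1.13. In summed level the order of the lists differed between the replicates. Core inducible members took 0.245% and 0.231% of all TPM in replicate 1 and 0.0378% and 0.0562% in replicate 2. Constitutive members took 0.113%, 0.113%, 0.108% and 0.149%. The sum of the core list was thus above that of the constitutive list in replicate 1 and below it in replicate 2. The order in replicate 1 rests on Hspb1, which alone was at 1876 and 1835 TPM in 1a and 1b. The whole core list summed to 2450 and 2310 TPM there, against 1130 TPM for the constitutive list in each.

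Single inducible genes differed in their place among the constitutive members. Hspb1 was above all 18 constitutive members in replicate 1, above 17 in 2a and above 16 in 2b. Hspe1 was above 17 or 18 in each library, Hsp90aa1 above 14 to 17 and Hspa1b above 13 to 16. Hsph1 was above 2, 12, 3 and 11 of them, and Hspb8 above 2, 10, 0 and 0. Hspa4l was above 2, 2, 10 and 2, and in 2b Ahsa1 and Stip1 were above 3 and 4. Inducible members were thus spread over the whole range of constitutive ones.

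Members were called apart between the biological replicates where the libraries of one did not overlap those of the other and the replicate means differed 4-fold or more on TPM + 1. Both replicates had the same treatment, so this describes variation and not an effect. A ratio of 2 replicate means has no error of its own. Of 75 members above 0 TPM, 10 were higher in replicate 1 (13.3%), against 6.9% of all genes above 0 TPM, and 4 were higher in replicate 2 (5.33%), against 4.12%. Among the 25 members present in every library there were 3 each way (12% and 12%), against 7.11% and 6.1% of the genes present in every library. Leaving out 1 library raises the number that can avoid overlap. The count higher in replicate 2 was then 13, 8, 7 and 13 without 1a, 1b, 2a and 2b, and the count higher in replicate 1 was 9 to 15.

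The fold on TPM + 1 of the members higher in replicate 1 was steady for few of them. Hspb1 was 7.96-fold higher, and 7.46-fold to 8.52-fold without 1 library. Dnajc11 was 15.4-fold higher, and 14.0-fold to 17.2-fold without 1 library. Its effective length was 558 and 518 bases in 1a and 1b but 3616 and 4239 bases in 2a and 2b. Per annotated length Dnajc11 was at 4.21 and 3.63 TPM against 0.128 and 0.552 TPM, which is under 4-fold on TPM + 1. Ahsa1 was 41.3-fold higher, but 7.24-fold without 1b and 199-fold without 2a. Hspb2 was 5.82-fold higher, but 2.98-fold without 2a and 134-fold without 2b, and Hspa1a 4.84-fold, but 3.15-fold without 2b and 10.5-fold without 2a. The call of Hspa1a depends on the division of its reads with Hspa1b, which was itself 1.26-fold higher and not called. Dnajc9 was 8.85-fold higher, with 5.09-fold to 20.4-fold without 1 library, and Dnajc30 8.21-fold, with 1.02-fold without 1a. Of the 7 small heat shock protein genes, 3 were called (Hspb1, Hspb2 and Hspb8), against 6.9% of all genes above 0 TPM. Only Hspb1 among them kept the call without any 1 library. Dnajc9, a co-chaperone of histones, was at 29.7 and 11.4 TPM against 0.0568 and 2.81 TPM, and Dnajc11, a mitochondrial J protein, at 19.4 and 16.8 TPM against 0.113 and 0.366 TPM. The remaining members called were Dnajc25, Dnajc30, Hspb8 and Hspa12a, of which the highest value in any library was 17.1 TPM. Several of these calls rest on 1 library. Without 1a, those of Hspa1a, Dnajc25, Dnajc30 and Hspa12a were lost, without 1b that of Hspb8, without 2a those of Hspb2 and Dnajc25, and without 2b that of Hspa1a. Hspb1, Ahsa1, Dnajc9 and Dnajc11 kept the call without any 1 library. The 4 higher in replicate 2 were Bag1 by 7.02-fold, Hspa4 by 11.9-fold, Dnajc15 by 29.8-fold and Dnajc12 by 22.1-fold. Without 1 library the fold of Bag1 was 4.41 to 17.3 and that of Hspa4 9.88 to 14.0, while without 2a that of Dnajc15 was 3.92 and that of Dnajc12 was 3.85. Of these, Dnajc12, a co-chaperone of aromatic amino acid hydroxylases, was at 43.3 and 3.24 TPM in 2a and 2b and at 0.168 TPM or less in replicate 1. Without 2a the calls of Dnajc12 and Dnajc15 were lost, while Bag1 and Hspa4 kept theirs without any 1 library.

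**Figure D4:**
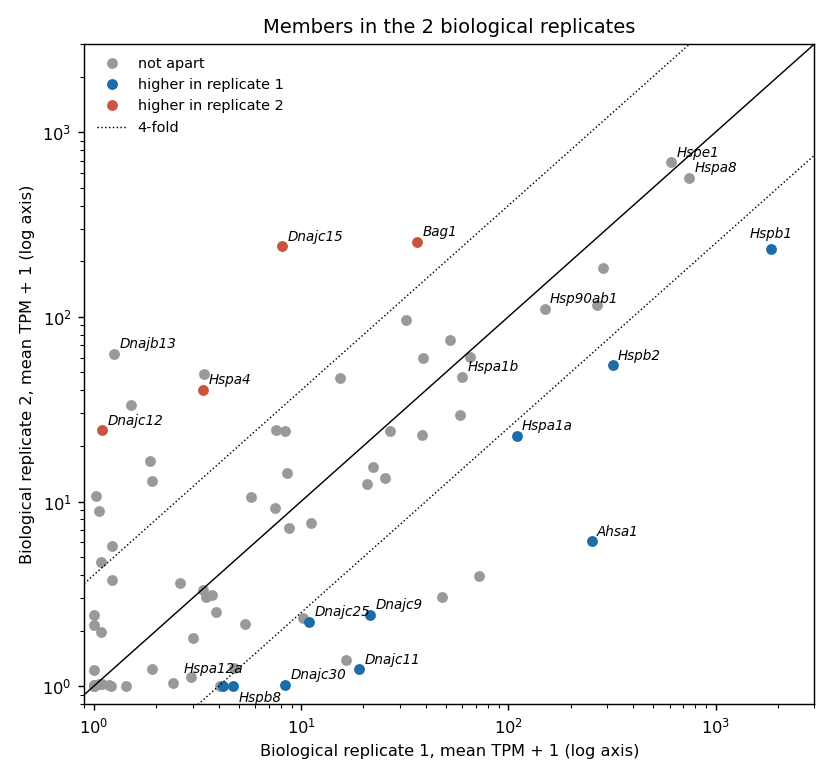
Mean TPM + 1 of each member in biological replicate 1 (x axis) and biological replicate 2 (y axis), both on log axes, with the line of equality and dotted lines at 4-fold. Blue points are the 10 members higher in replicate 1 and red points the 4 higher in replicate 2. Grey points beyond 4-fold are members whose libraries overlapped, such as Dnajb13, while Hspe1 and Hspa8 lie near equality.

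Of the core inducible members, 6 of 7 had the higher mean in replicate 1 (85.7%), and Hsph1 had it in replicate 2. The same held for 61.6% of all genes above 0 TPM and for 54.1% of the genes present in every library. With the further inducible members added, 10 of 15 had the higher mean in replicate 1 (66.7%), as did 10 of 18 constitutive members (55.6%) and 44 of all 78 members (56.4%). Immediate early genes, which respond within minutes to stimuli that include tissue dissociation, lay the same way: 12 of 12 were present in every library and 12 of 12 had the higher mean in replicate 1. Their medians were 196 and 118 TPM in 1a and 1b and 68.5 and 31 TPM in 2a and 2b. Their part in the level of the inducible members was not tested. Markers of the loop of Henle and distal nephron lay the other way, with medians of 7.58, 37.5, 102 and 126 TPM and summed levels of 78.0 and 275 TPM in replicate 1 and 1320.5 and 1246 TPM in replicate 2. Proximal tubule markers summed to 970 and 810 TPM in replicate 1 and to 1739 and 13047 TPM in replicate 2. Whether tubule RNA bears on the lower Hspb1 and Hspa1a of replicate 2 was not tested.

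Only 4 of the 25 members present in every library spanned less than 2-fold over the 4 libraries (16%), against 7.58% of the genes present in every library. These were Hspa8, Hspe1, Hsp90ab1 and Hspa1b. In this order they ranged from 321 to 855, 278 to 840, 122 to 260 and 32.8 to 76.8 TPM per annotated length, each over 2-fold. The range of Hspa1b also depends on how reads were divided with Hspa1a. At the other end, 25 of the 75 members above 0 TPM (33.3%) held at least 90% of their TPM in 1 library, against 31.6% of all such genes, a share close to the background. For 11 of them that library was 2a, for 6 it was 1a, for 5 it was 2b and for 3 it was 1b. Of members that reached 10 TPM in a technical replicate, 14.7% in replicate 1 and 23.7% in replicate 2 were under 0.5 TPM in the other, against 21% and 30.3% of all genes. Among the members present in every library, the median difference between technical replicates on the log2 scale of TPM was 0.68 in replicate 1 and 1.26 in replicate 2, and the median difference between biological replicates was 0.93. Over all 3179 genes present in every library these medians were 1.02, 1.00 and 0.96. The technical differences are between single libraries and the biological ones between means of 2 libraries, which carry less technical noise. The medians therefore do not show whether biological replicates differed more than technical ones.

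Other chaperone genes were counted beside the members. Of 29 found in the table outside the symbol rule, 22 were present in every library, among them the ubiquitin gene Ubb at 650 to 1246 TPM, the prefoldin gene Pfdn5 at 250 to 360 TPM and Hsbp1, a small protein that binds Hsf1, at 159 to 630 TPM. Stub1, the ubiquitin ligase that works with Hsp70, was at 22.6 and 3.54 TPM in replicate 1 and at 229 and 307 TPM in replicate 2. Bag1 lay the same way round, and a link between these genes was not tested. Of 6 ER chaperone genes outside the rule, 3 were present in every library. Hspa5, the Hsp70 of the ER, was at 202, 320, 87.8 and 65.3 TPM and Hsp90b1, its Hsp90, at 128, 185, 92.9 and 234 TPM. Hspa5 was below Hspa8 in each library.

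Sequence that is shared with other genes limits some of these levels. Of the 78 members, 37 share no 31-base word with another annotated gene, 18 share 10% or more and 6 share more than 50%, namely Hspa8, Hspa1b, Hspa1a, Hsp90aa1, Hspb1 and Hspd1. For Hspb1 the share is 56.7%, all with the pseudogene Hsp25-ps1, which was at 1.86 TPM or less. The near copies in the table of Hspa8, Hsp90aa1, Hspb1 and Hspd1 were at 5.95 TPM or less, but how reads were divided among copies cannot be told from the values.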

How the data were processed

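RNA-seq values of 4 libraries were used, all of 1 group taken from the labels. The authors trimmed reads with Trimmomatic 0.36, quantified GRCm38 transcripts with Salmon 0.7.2 and summed them with Tximport 1.2.0 (lengthScaledTPM). An Ensembl release is given by none of the sources used here. Deposited by the authors were TPM, estimated counts scaled from it, and effective lengths. The deposited mean of TPM is that of 3 libraries, without 1a (0 rows differ by more than 1e-06 TPM). Without molecular identifiers, count totals do not give molecules, so no counting interval is given.

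Levels are means of the 2 biological replicates, each first averaged over technical replicates, with the SD between them, which leaves out the technical spread. The pseudocount was 1 TPM. Values were computed with Python 3.11.15, pandas 2.3.3 and numpy 2.4.6 and drawn with matplotlib 3.10.9, and calculations were tested on simulated data. Levels per annotated length rescale TPM times effective length by the longest GENCODE M21 transcript (31475 symbols found). Gene coordinates are from GENCODE M21, and words of 31 bases were compared among its transcripts. Promoters are from RefSeq.

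Members and lists were chosen with earlier results of these data known. Named with values were the inducible and constitutive lists, the 3 highest members of each family and members apart between replicates. Genes outside the members are named as context, chosen after their values were seen. Alternatives changed the minimum level, scaling, pseudocount, fold, lists and libraries.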

Additional observations from a re-analysis of the deposited data

Results flagged for a closer look

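In 19 of 68 quantities examined, 1 of the 4 libraries lay far from the other 3, by the gap to its nearest neighbour relative to the whole range. Chance gives about 1 in 20 where values are independent, but these libraries are technical replicates of 2 biological replicates. Of 47 named levels, 15 stood apart in this way, 7 through 2a, 4 through 1a, 3 through 2b and 1 through 1b. The same share over all genes was not computed, so this count is not shown to be an excess. By another measure, 31.6% of all genes above 0 TPM held at least 90% of their TPM in 1 library. None of these values was tested for a cause.

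In 2a the levels concerned were Dnajc15 at 449 TPM, Bag5 at 64.4 TPM, Dnajc12 at 43.3 TPM, Hspa4l at 30.99 TPM, Dnaja4 at 7.46 TPM, Hspbap1 at 2.86 TPM and Dnajb12 at 0.451 TPM, all high. In 1a they were Hspb6 at 93.9 TPM, Hsf1 at 18.4 TPM, Dnajc25 at 17.1 TPM and Dnajc30 at 14.7 TPM, all high. In 2b Dnajb13 at 124 TPM and Hspb11 at 96.5 TPM were high and Stip1 at 1.04 TPM was low. Ahsa1 was high in 1b, at 460 TPM.

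The adaptors' share of all TPM was high in 1b at 0.0486%, which follows from Ahsa1, and the ratio of Hspe1 to Hspd1 was high there at 82.3. In 2b the constitutive members' share was high at 0.149%, as was that of Hspb11 and Hspbap1 together at 0.00965%.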

How the results depend on the processing

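The core inducible median stayed above the constitutive one under each alternative run, by 0.63 to 2.66 on the log2 scale, with both ends from leaving out a biological replicate. Counting any level above 0 TPM gave 58 members in every library in place of 25, and leaving out the 20 highest genes scaled the members' share to 0.791%. Members higher in replicate 1 numbered 4 at 8-fold and 3 with a pseudocount of 10 TPM, and those higher in replicate 2 numbered 7 at 2-fold and 2 with a pseudocount of 10 TPM. Without 1 library the latter count was 7 to 13, where fewer libraries leave less room for overlap. With 2 units in place of 3, 16 members had a heat shock element, since the shorter form includes the longer. Per annotated length Hsp90aa1 over Hsp90ab1 was 0.888, the other side of 1. Of 47 named levels, 14 moved beyond their SD per annotated length, 4 with the authors' deposited mean, and 29 moved over 1.5 times without 1 library. No paired analysis was possible because there is 1 group. The alternatives per annotated length and without Hspb1, and those of the ratios, were added after seeing the data. Depth is known only as estimated counts, so what it limits was not computed.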
